A study of Rattus norvegicus with 16 samples.

Results

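The laminin and integrin genes were 38 of the 31038 genes measured. They comprised 11 genes for laminin chains, 18 for integrin alpha chains, 8 for integrin beta chains and Dag1, which encodes dystroglycan. Members were taken by gene symbol, as every gene named Lama, Lamb or Lamc with a chain number, every Itga and Itgb gene, and Dag1. No measured value decided which genes were members, but the set was chosen with earlier results of these data known. Of the 38, 17 reached a mean of at least 10 FPKM in at least 1 group and 21 stayed under it in every group. FPKM, fragments per kilobase of transcript and per fixed number of fragments sequenced, is a level corrected for gene length and can be compared between genes.

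The study sequenced RNA of rat sciatic nerve as 16 libraries in 8 groups of 2. Purified Schwann cells and whole nerve were each taken from uncrushed nerves and on days 3, 5 and 7 after the nerve had been crushed at postnatal day 18. No transgene is named, the strain was not given in the sources used here, and each library came from pooled nerves. Crushed animals had surgery under isoflurane with carprofen against pain, and uncrushed nerves had no sham surgery, so crush, surgery and drug cannot be told apart. The labels give postnatal day 18 as the age of all 16 libraries, uncrushed ones included, and do not say whether it is the age at crush or at collection, so any difference in age at collection cannot be told apart from the crush either. The injured nerves were sampled distal to the crush and the uncrushed nerves over the matching segment. Schwann cells were freed by enzymes, passed over dishes that held back cells with CD45 or Thy1 on their surface, and then collected on a dish that binds the O4 antigen. Whole nerve was not dissociated, so in these 16 libraries the preparation and the cell content of the 2 kinds of library cannot be told apart. The paper also compared whole nerve with dissociated nerve that was not panned, a set not among the libraries used here. Nothing in the labels says whether the 2 libraries of a group shared animals or a day of surgery, so the p-values measure only the spread between these libraries.

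Laminins are secreted trimers of an alpha, a beta and a gamma chain that build the sheet of basement membrane around each Schwann cell and its axon. Integrins, pairs of an alpha and a beta chain, and dystroglycan span the Schwann cell membrane and tie that sheet to the cytoskeleton. Laminin-211, which holds the chains of Lama2, Lamb1 and Lamc1, and laminin-411, in which Lama4 takes the place of Lama2, are the known laminins of the endoneurium, and loss of Lama2 or of Schwann cell Lamc1 is known to impair axon sorting and myelination.

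The 4 laminin chain genes with the highest levels and Itgb8, the receptor gene with the highest level after crush in Schwann cells, are shown by the 250 bases before their annotated start, because the chain genes moved together. Sequences are those of RefSeq on build GRCr8, where 28 of the 38 genes matched an entry, and each is written along the coding strand. The windows are Lama2 at chr1:19491896-19492145 (plus strand), Lamb1 at chr6:53562846-53563095 (plus strand), Lamc1 at chr13:68051987-68052236 (minus strand), Lama4 at chr20:43946648-43946897 (plus strand) and Itgb8 at chr6:146351246-146351495 (minus strand). Capitals mark matches on either strand to TGANTCA (AP-1), ACAAAG (SOX), GGAATG (TEAD), GGGCGG (GC box) or GCGTGGG (EGR).
Lama2: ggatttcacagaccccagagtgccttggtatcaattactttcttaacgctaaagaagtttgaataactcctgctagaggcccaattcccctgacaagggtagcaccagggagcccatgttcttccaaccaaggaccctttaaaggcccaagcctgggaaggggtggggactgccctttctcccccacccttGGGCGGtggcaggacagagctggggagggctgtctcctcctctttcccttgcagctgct
Lamb1: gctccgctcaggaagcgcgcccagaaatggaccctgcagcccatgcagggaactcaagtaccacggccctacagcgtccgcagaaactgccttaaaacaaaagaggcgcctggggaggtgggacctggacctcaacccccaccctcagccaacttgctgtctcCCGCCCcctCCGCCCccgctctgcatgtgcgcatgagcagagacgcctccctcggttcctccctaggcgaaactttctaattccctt
Lamc1: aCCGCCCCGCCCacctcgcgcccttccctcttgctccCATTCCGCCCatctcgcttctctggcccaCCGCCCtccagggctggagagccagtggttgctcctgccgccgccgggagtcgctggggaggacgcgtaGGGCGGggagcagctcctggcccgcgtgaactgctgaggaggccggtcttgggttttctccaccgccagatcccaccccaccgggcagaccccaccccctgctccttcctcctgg
Lama4: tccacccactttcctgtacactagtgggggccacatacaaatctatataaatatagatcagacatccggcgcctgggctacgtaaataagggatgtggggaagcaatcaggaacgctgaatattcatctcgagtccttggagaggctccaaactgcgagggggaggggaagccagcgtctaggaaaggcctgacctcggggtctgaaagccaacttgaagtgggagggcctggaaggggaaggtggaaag
Itgb8: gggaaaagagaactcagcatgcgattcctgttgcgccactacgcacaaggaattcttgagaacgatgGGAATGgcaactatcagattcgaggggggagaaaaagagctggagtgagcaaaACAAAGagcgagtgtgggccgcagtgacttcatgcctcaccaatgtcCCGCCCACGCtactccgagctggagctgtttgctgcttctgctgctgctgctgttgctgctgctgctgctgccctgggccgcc
GC boxes were found once in the Lama2 window, 2 times in Lamb1 and 5 times in Lamc1, where one of them overlaps the only TEAD match and another pair share a base. The Lama4 window held none of the 5 motifs. The Itgb8 window held 1 match each to the SOX, TEAD, GC box and EGR letters, the last 2 overlapping. Among 33469 windows of the same length, 30.5% held a GC box, 12.1% the TEAD letters, 16.3% the SOX letters, 3.68% the EGR letters and 6.34% the AP-1 letters. Lamc1 and Lamb1 were the richest in G and C, at 71.2% and 62%, against a median of 51.2% over all windows. These matches describe the letters only.

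Each library held 10555067 to 27562637 expected counts, and a gene with 3 counts or fewer in both libraries of a group was taken as at the floor. The 6 Schwann cell markers summed to 8744 and 8963 FPKM in uncrushed Schwann cells and to 3835 to 6524 after crush, and to 18041 and 21516 in uncrushed whole nerve and 2310 to 4624 after crush. The 8 macrophage markers summed to 3.07 to 14.4 FPKM in Schwann cell libraries and to 140 to 636 in whole nerve, and the 6 endothelial markers to 0.62 to 4.16 and 79.7 to 116. The 6 fibroblast markers summed to 1338 to 1598 FPKM in uncrushed Schwann cells and to 297 to 465 after crush, mostly through Col1a1, Col1a2 and Col3a1, while Dcn stayed at 3.12 to 17.9 FPKM in Schwann cells against 1703 to 3064 in whole nerve. The 6 pericyte and smooth muscle markers summed to 65.4 and 55 FPKM in uncrushed Schwann cells and to 9.92 to 21.9 after crush, against 257 to 409 in whole nerve. The 4 skeletal muscle markers summed to 406 FPKM in uncrushed whole nerve replicate 2 and to 5.33 to 46.5 in the other whole nerve libraries. In whole nerve, the fitted changes after crush lay a median of 0.40 to 0.41 below the log2 ratios of the deposited FPKM over the 17 members that reached 10 FPKM. Fitted whole nerve falls of members smaller than this came without a fall in mean FPKM. Differences of the injury effect between tissues carry a like offset, and for these members they lay lower in FPKM than in the fit.

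The chains of laminin-211 were the most abundant laminin RNAs of uncrushed Schwann cells, and all 3 fell by day 3. Lama2, the alpha chain, stood at 352 and 307 FPKM in the 2 uncrushed Schwann cell libraries, at 65.2 and 58.3 on day 3, at 85.1 and 89.4 on day 5 and at 114 and 116 on day 7. Lamb1, the beta chain, stood at 395 and 334 FPKM uncrushed, 71.5 and 65.8 on day 3, 102 and 102 on day 5, and 150 and 128 on day 7. Lamc1, the gamma chain of nearly every laminin, stood at 364 and 336 FPKM uncrushed, 74.1 and 73.2 on day 3, 97.5 and 95.7 on day 5, and 128 and 118 on day 7. For each of the 3 genes both uncrushed libraries lay above all 6 crushed libraries, and the lowest values were those of day 3. Lama2 was 5.14-fold lower on day 3 (log2 fold change -2.36 ± 0.10 SE, edgeR adjusted p = 1.22e-07), Lamb1 5.11-fold lower (-2.35 ± 0.12, edgeR adjusted p = 2.74e-07) and Lamc1 4.58-fold lower (-2.19 ± 0.10, edgeR adjusted p = 1.36e-07). In bulk RNA, fewer cells of a type and less RNA per cell cannot be told apart.

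The 3 genes then climbed together between day 3 and day 7 without reaching the uncrushed level. Over those days Lama2 rose by a log2 fold change of 0.81 ± 0.10 SE (edgeR adjusted p = 4.35e-04), Lamb1 by 0.93 ± 0.11 (edgeR adjusted p = 4.38e-04) and Lamc1 by 0.65 ± 0.09 (edgeR adjusted p = 0.00107). On day 7 they were still 2.94-, 2.68- and 2.92-fold lower than in uncrushed Schwann cells. The ratio of Lama2 to Lamc1 FPKM within a library was 0.941 ± 0.038 (SD, n = 2) uncrushed, 0.838 ± 0.059 on day 3 and 0.936 ± 0.069 on day 7, so the proportion of alpha to gamma chain moved little beside the fall of both.

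Lama4, the alpha chain of laminin-411, fell less. It stood at 162 and 137 FPKM in uncrushed Schwann cells, at 50.3 and 45.2 on day 3, at 55.9 and 58.4 on day 5 and at 69.2 and 61.1 on day 7, with no overlap between uncrushed and crushed libraries. The log2 fold changes were -1.59 ± 0.11 SE on day 3, -1.41 ± 0.11 on day 5 and -1.23 ± 0.11 on day 7 (edgeR adjusted p = 2.10e-06, 5.34e-06 and 1.69e-05). Lama4 made up 31.1% of the summed FPKM of the 5 alpha chains in uncrushed Schwann cells, 42.8% on day 3 and 35.9% on day 7, and Lama2 made up 68.7%, 55.3% and 63.4%.

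Lamb2, the beta chain enriched at synapses and in vessel walls, was a minor chain with little change in Schwann cells. Its levels were 14.2 and 14.4 FPKM uncrushed, 12 and 11.5 on day 3, 11 and 12.2 on day 5, and 11.3 and 11.1 on day 7. The day 3 difference did not pass the test (log2 fold change -0.23), and the day 7 fall did (-0.39 ± 0.10 SE, edgeR adjusted p = 0.00826). The ratio of Lamb2 to Lamb1 FPKM was 0.0395 uncrushed, 0.172 on day 3 and 0.081 on day 7, Lamb1 having fallen. Lama5, a broadly expressed alpha chain, was at 1.36 and 1.3 FPKM uncrushed and 1.71 and 2.49 on day 3, and its day 3 call (log2 fold change 0.73) was lost without day 3 replicate 2 (0.40, edgeR adjusted p = 0.088).

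Further chains were close to absent from Schwann cells. Lama1, Lamb3 and Lamc3 were at the floor in all 4 Schwann cell groups, and Lama3 did not exceed 0.06 FPKM there and 0.66 FPKM in whole nerve. Of the 11 chains, 7 passed the filter on low counts in Schwann cells. On day 3, 5 of these were lower and 1 higher, with a median log2 fold change of -2.19 beside 0.00 over all 14961 genes tested. In all, 24 of the 30 laminin, integrin and dystroglycan genes tested were called on day 3, 3 of them with a group at the floor, 11 higher and 13 lower, where 52.5% of all genes tested were called, 26.9% higher and 25.7% lower. On day 5 it was 22, 9 higher and 13 lower, beside 54.6% of all genes (29% higher, 25.6% lower), and on day 7 it was 23, 9 higher and 14 lower, beside 46.9% (25% higher, 21.9% lower). Between day 3 and day 7, 8 of 30 were higher and 4 lower on day 7, beside 21% of all genes called (10.2% higher, 10.7% lower). These counts were 5 and 2 without day 3 replicate 2, and 6 and 1 without day 7 replicate 1.

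**Figure D1:**
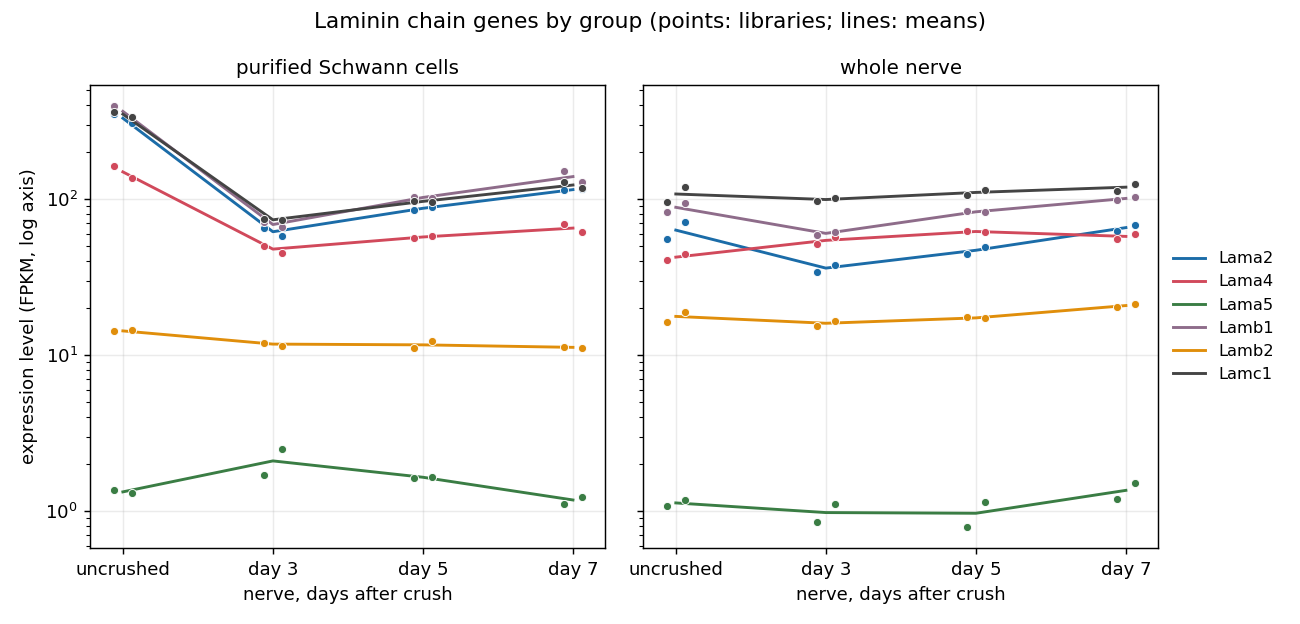
Expression level in FPKM on a log axis for 6 laminin chain genes in purified Schwann cells (left) and whole nerve (right), uncrushed and 3, 5 and 7 days after crush. Points are the 2 libraries of each group and lines join their means. In Schwann cells Lama2, Lamb1 and Lamc1 drop from above 300 FPKM to between 58.3 and 74.1 on day 3 and climb again, whereas Lamb2 stays between 11 and 14.4.

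Whole nerve showed a shallower fall with a fuller return. Lama2 stood at 55.3 and 71.1 FPKM in uncrushed whole nerve, at 34.1 and 38.1 on day 3, at 44.6 and 49.3 on day 5 and at 62.7 and 68.5 on day 7. Its log2 fold change was -1.22 ± 0.12 SE on day 3 and -0.83 ± 0.12 on day 5 (edgeR adjusted p = 2.11e-05 and 4.06e-04). The day 7 value of -0.35 was lost as a call without uncrushed replicate 2 (-0.16, edgeR adjusted p = 0.35), without day 7 replicate 1 (-0.30) and without day 7 replicate 2 (-0.41), and the log2 ratio of mean FPKM there was 0.05. By day 7 the crushed whole nerve libraries thus lay between the uncrushed ones for Lama2.

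Lamb1 stood at 82.4 and 94.6 FPKM in uncrushed whole nerve, 58.8 and 61.7 on day 3, 83.4 and 82.2 on day 5, and 98.1 and 104 on day 7, with a log2 fold change of -0.96 ± 0.09 SE on day 3 (edgeR adjusted p = 1.19e-05). Lamc1 stood at 95.3 and 120 FPKM uncrushed, 97.5 and 101 on day 3, 107 and 114 on day 5, and 113 and 126 on day 7. Its fitted day 3 change was -0.53 ± 0.11 SE (edgeR adjusted p = 0.00326), but the log2 ratio of mean FPKM was -0.12 and the uncrushed and day 3 libraries overlapped. The day 5 value of -0.37 lost its call without uncrushed replicate 2 (-0.19), day 5 replicate 1 (-0.32) or day 5 replicate 2 (-0.42), and the FPKM ratio there was 0.03. The day 7 values of Lamb1 (-0.22) and Lamc1 (-0.26) did not pass the test, and their log2 ratios of mean FPKM were 0.19 and 0.15.

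Lama4 did not pass the test in whole nerve on any day, at log2 fold changes of -0.05, 0.14 and 0.03 on days 3, 5 and 7. In FPKM its uncrushed libraries stood at 40.5 and 44.4 and the 6 crushed libraries at 51.2 to 62.5, without overlap. The ratio of Lama4 to Lama2, which does not depend on the scaling between libraries, was 0.678 ± 0.077 (SD, n = 2) in uncrushed whole nerve, 1.51 ± 0.01 on day 3, 1.32 ± 0.11 on day 5 and 0.879 ± 0.017 on day 7. Lama4 thus exceeded Lama2 in all 4 whole nerve libraries of days 3 and 5 and in no Schwann cell library, where the ratio ran from 0.445 to 0.776. Of the 38 genes, 34 were tested in whole nerve. On day 3, 21 were called, 10 higher and 11 lower, where 45.6% of all genes were called, 23.1% higher and 22.5% lower. On day 5 it was 20, 12 higher and 8 lower, beside 38.4% (18.9% higher, 19.5% lower), and on day 7 it was 15, 11 higher and 4 lower, beside 31.3% (15.4% higher, 15.9% lower). Between day 3 and day 7, 6 were higher and 5 lower on day 7, beside 21.2% (9.85% higher, 11.4% lower). These counts were 3 and 3 without day 3 replicate 1, 4 and 3 without day 3 replicate 2, 5 and 2 without day 7 replicate 1, and 3 and 5 without day 7 replicate 2. One fit on all 16 libraries gave 12 higher and 4 lower on day 5, and 12 higher and 2 lower on day 7. The count higher on day 3 was 6 without uncrushed replicate 1, the count lower on day 5 was 5 without uncrushed replicate 2, and the count lower on day 7 was 1 without uncrushed replicate 2 or day 7 replicate 1.

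Of the laminin receptors, some rose in Schwann cells while their ligands fell, and Itgb4 fell. Dag1 encodes the dystroglycan precursor, whose alpha part binds the Lama2 chain and whose beta part crosses the membrane. In Schwann cells it stood at 328 and 325 FPKM uncrushed, 592 and 636 on day 3, 580 and 605 on day 5, and 535 and 527 on day 7. Every crushed library lay above both uncrushed libraries. The log2 fold changes were 0.96 ± 0.09 SE, 0.83 ± 0.09 and 0.66 ± 0.09 on days 3, 5 and 7 (edgeR adjusted p = 2.08e-05, 5.75e-05 and 3.39e-04).

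Among the alpha chains of the laminin-binding integrins, Itga6 was the most abundant. It stood at 531 and 468 FPKM in uncrushed Schwann cells, 452 and 438 on day 3, 401 and 436 on day 5, and 412 and 363 on day 7. All 6 crushed libraries lay below both uncrushed ones. The day 3 value of -0.11 did not pass the test. The day 5 value of -0.27 lost its call without uncrushed replicate 1 (-0.22), day 5 replicate 1 (-0.24) or day 5 replicate 2 (-0.35), and the day 7 value of -0.40 lost its call without day 7 replicate 2 (-0.31, edgeR adjusted p = 0.0633). Itga7, the alpha chain best known from muscle, stood at 27.9 and 24.7 FPKM uncrushed, 50.7 and 49.1 on day 3, 57.3 and 58.7 on day 5, and 44.7 and 48.3 on day 7. Its log2 fold change was 0.99 ± 0.09 SE on day 3 and 1.14 ± 0.09 on day 5 (edgeR adjusted p = 1.78e-05 and 8.15e-06). The ratio of Itga6 to Itga7 was 19.0 ± 0.1 (SD, n = 2) uncrushed, 8.92 ± 0.02 on day 3 and 8.37 ± 1.19 on day 7. Itga3, an alpha chain typical of epithelia, was scarce, at 0.07 and 0.18 FPKM uncrushed, and rose to 1.56 and 1.65 on day 3 (log2 fold change 3.67 ± 0.42 SE, edgeR adjusted p = 6.38e-05). The uncrushed libraries held 4 and 10 counts of it, and the value was 3.06 without uncrushed replicate 1 and 4.58 without replicate 2.

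The beta partners of Itga6 parted. Itgb1, the common beta chain, stood at 316 and 241 FPKM in uncrushed Schwann cells and between 222 and 260 in all crushed ones, so the groups overlapped, and the day 3 difference did not pass the test (-0.16). Its day 7 value of -0.32 lost its call without uncrushed replicate 1 (-0.15), without day 7 replicate 1 (-0.37) or without day 7 replicate 2 (-0.28). Itgb4, which pairs with Itga6 alone and is known from mature myelinating Schwann cells, stood at 98.8 and 95.3 FPKM uncrushed, 45.9 and 42.0 on day 3, 45.6 and 48.6 on day 5, and 50.9 and 52.0 on day 7. Its log2 fold change was -1.09 ± 0.09 SE on day 3 and -0.95 ± 0.09 on day 7 (edgeR adjusted p = 6.50e-06 and 2.46e-05). The ratio of Itgb1 to Itgb4 was 2.86 ± 0.47 (SD, n = 2) uncrushed, 5.45 ± 0.16 on day 3 and 4.44 ± 0.24 on day 7. Of the 6 laminin receptor genes, 3 were called higher and 1 lower on day 3, with a median log2 fold change of 0.43 beside 0.00 over all genes, of which 52.5% were called, 26.9% higher and 25.7% lower.

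**Figure D2:**
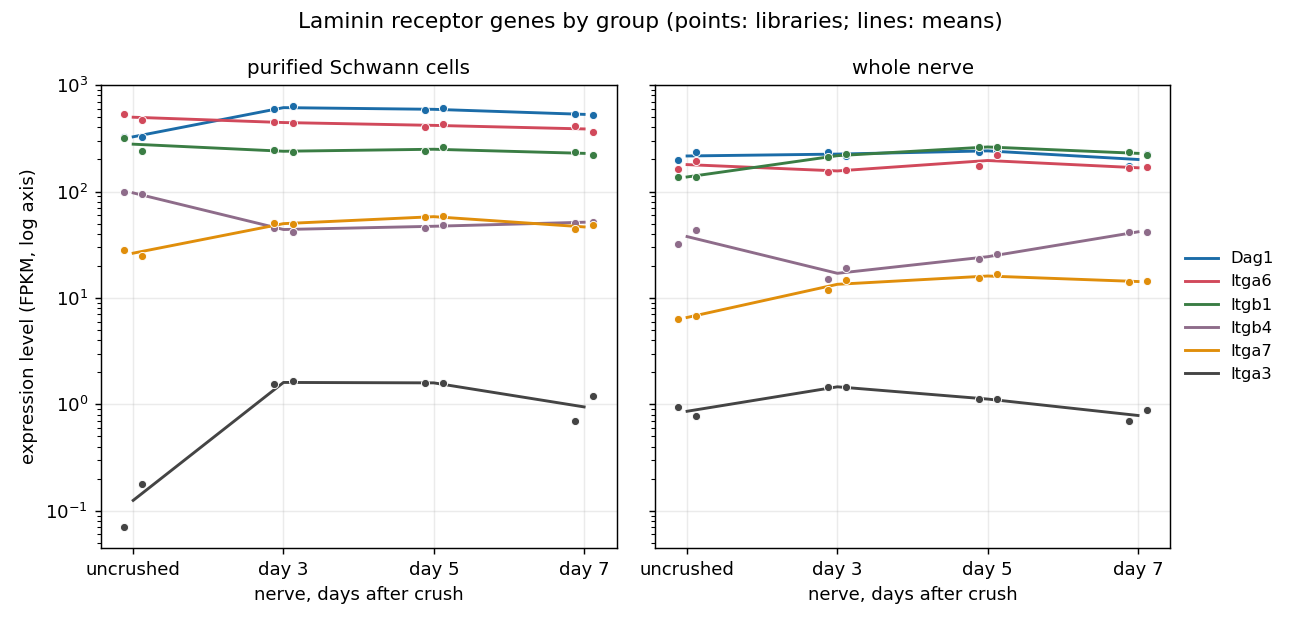
Expression level in FPKM on a log axis for 6 laminin receptor genes in purified Schwann cells (left) and whole nerve (right), uncrushed and 3, 5 and 7 days after crush. Points are the 2 libraries of each group and lines join their means. In Schwann cells Dag1 and Itga7 lie higher and Itgb4 lower in all crushed libraries than in uncrushed ones, the crushed libraries of Itga6 lie lower at 363 to 452 FPKM against 468 and 531, and those of Itgb1 overlap the uncrushed ones.

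In whole nerve Itgb4 fell on day 3 and its day 7 libraries lay within the uncrushed range. It stood at 32.2 and 43.2 FPKM uncrushed, 15.0 and 19.0 on day 3, 23.0 and 25.8 on day 5, and 41.8 and 41.8 on day 7. The log2 fold change was -1.56 ± 0.15 SE on day 3 (edgeR adjusted p = 1.37e-05) and -0.26 on day 7, which did not pass the test and where the log2 ratio of mean FPKM was 0.15. The injury effect on day 7 was lower in Schwann cells, set against whole nerve, by 0.81 ± 0.18 SE on the log2 scale (a difference of -0.81, edgeR adjusted p = 0.00401).

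Itga7 rose in whole nerve too, from 6.34 and 6.76 FPKM to 12 and 14.9 on day 3, 15.2 and 16.9 on day 5, and 14.0 and 14.5 on day 7 (log2 fold change 0.59 ± 0.12 SE on day 3, edgeR adjusted p = 0.00218). Itgb1 was at 138 and 136 FPKM uncrushed and 262 and 263 on day 5 (0.53 ± 0.08 SE, edgeR adjusted p = 4.71e-04). Itga6 was at 164 and 194 FPKM uncrushed and 153 and 159 on day 3 (-0.61 ± 0.12 SE, edgeR adjusted p = 0.00221), a difference in FPKM smaller than that between the uncrushed libraries.

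Dag1 was level in whole nerve, at 197 and 234 FPKM uncrushed and 175 to 248 in the 6 crushed libraries. Its day 3 value of -0.35 lost its call without uncrushed replicate 2 (-0.22), the library with the highest skeletal muscle markers, or without day 3 replicate 1 (-0.43) or replicate 2 (-0.28), and its log2 ratio of mean FPKM was 0.06. Its day 7 value of -0.52 lost its call without uncrushed replicate 2 (-0.39) or day 7 replicate 1 (-0.35). The injury effect on Dag1 was higher in Schwann cells, set against whole nerve, on day 3 by 1.21 ± 0.17 SE and on day 7 by 1.06 ± 0.17 (log2 scale, edgeR adjusted p = 9.88e-05 and 3.19e-04). In FPKM both differences were smaller, since the fitted whole nerve changes lay below the FPKM ratios, as given above.

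Set side by side over the 8 groups, ligand and receptor changed their proportion most in Schwann cells. The ratio of Dag1 to Lama2 FPKM was 0.933 and 1.06 in the uncrushed Schwann cell libraries, 9.08 and 10.9 on day 3, 6.81 and 6.77 on day 5, and 4.71 and 4.53 on day 7. In whole nerve it was 3.57 and 3.29 uncrushed, 6.86 and 5.66 on day 3, 5.24 and 5.03 on day 5, and 2.79 and 3.29 on day 7. On day 7 both whole nerve libraries lay below the uncrushed ones, the nearest at 3.287 against 3.293, and both Schwann cell libraries lay above theirs. The ratio of Itga6 to Itgb4, partners of one receptor, was 5.14 ± 0.33 (SD, n = 2) in uncrushed Schwann cells and 10.1 ± 0.4 on day 3, and 4.79 ± 0.43 and 9.27 ± 1.3 in whole nerve. On day 7 it was 7.54 ± 0.79 in Schwann cells and 4 ± 0.07 in whole nerve.

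On the inner side of dystroglycan, periaxin (Prx) and Drp2, which form a complex with it at the outer surface of myelin, fell in Schwann cells. Prx went from 124 and 141 FPKM in uncrushed Schwann cells to 1.93 and 2.04 on day 3 (log2 fold change -6.01) and was at 58.3 and 39.6 on day 7. Drp2 went from 67.7 and 75.6 FPKM to 2.58 and 2.62 (-4.71). Utrn, the dystrophin relative, changed by -1.28 and Dmd, dystrophin, by -1.14 on day 3 (edgeR adjusted p = 3.45e-06 and 6.06e-06). Of the 16 genes of the dystrophin glycoprotein complex, 14 were tested in Schwann cells and 11 were lower and 2 higher on day 3, with a median of -1.15 beside 0.00 over all genes, of which 26.9% were higher and 25.7% lower. Sgca, a sarcoglycan, was the most raised, listed at 0 in both uncrushed libraries and at 1.73 and 2.52 FPKM on day 3. Among 10 genes tested for the sugar chain through which dystroglycan binds laminin, 3 were higher and 2 lower on day 3, a share near the 52.5% of all genes. B3galnt2 was the most lowered, at -0.50, and lost its call without uncrushed replicate 1 (-0.32) or day 3 replicate 2 (-0.40). In whole nerve none of these 10 was called higher and 3 were called lower on day 3, where 23.1% of all genes were higher and 22.5% lower.

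Of 13 genes for laminin's partners in the basement membrane, 9 were tested in Schwann cells and 6 were lower and 3 higher on day 3, with a median of -0.78, where 52.5% of all genes were called, 26.9% higher and 25.7% lower. Col15a1 fell most (-4.16, edgeR adjusted p = 7.26e-06), and Col4a1, the main collagen of the sheet, went from 105 and 90.2 FPKM to 13.6 and 13.6 (-2.78). Ntn4, a laminin-related netrin, lay at the floor in uncrushed Schwann cells and at 0.64 and 0.46 FPKM on day 3. Of 18 genes for proteins on the inner face of integrins, 16 were tested, and 9 were higher and 3 lower on day 3, beside the same shares of all genes. Parvb, a parvin, was the most raised (2.74, at 0.31 and 0.13 FPKM uncrushed and 1.61 and 1.20 on day 3), and Tln2, a talin, the most lowered (-1.14). Of 7 other laminin receptors and their membrane partners, 2 were higher and 3 lower on day 3, beside the same shares. The tetraspanin Cd82 rose by 2.59 and the tetraspanin Cd9 fell by 1.13, while Cd151, the tetraspanin of laminin-binding integrins, rose by 0.55 and Bcam, a receptor for Lama5, was at -0.27 and did not pass the test. Adgrg6, an adhesion receptor that binds Lama2 and is required for myelination, was called at -0.41 and lost its call without uncrushed replicate 1 (-0.24) or day 3 replicate 2 (-0.36).

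Of the 4 collagen-binding integrin chains, Itga1 and Itga2 were tested in Schwann cells and both fell on day 3, where 25.7% of all genes were lower. Itga1, an alpha chain for type IV collagen, stood at 20.0 and 14.4 FPKM uncrushed, 4.66 and 4.26 on day 3, 5.53 and 3.88 on day 5, and 10.5 and 11.1 on day 7. The log2 fold change on day 3 was -1.89 ± 0.19 SE (edgeR adjusted p = 2.70e-05), and the rise from day 3 to day 7 was 1.18 ± 0.19 (edgeR adjusted p = 0.00203). Itga2, a second collagen receptor, fell by 1.96 on the log2 scale on day 3, from 7.03 and 7.78 FPKM to 1.82 and 1.84. In whole nerve Itga1 was at 8.31 and 7.98 FPKM uncrushed and at 8.94 to 13.5 in the 6 crushed libraries, without overlap, and passed no test against uncrushed. Itga11, the alpha chain of fibroblasts, was at 3.43 to 7.50 FPKM in whole nerve and did not exceed 0.20 in Schwann cells, and changed in whole nerve by -1.22 on day 3. Itga10, the cartilage chain, was at the floor in all Schwann cell groups and rose in whole nerve from 0.03 and 0.08 FPKM to 0.58 and 0.45 on day 3 (log2 fold change 2.97, edgeR adjusted p = 0.00139). Its uncrushed whole nerve libraries held 2 and 4 counts, and the value was 2.28 without replicate 1 and 3.81 without replicate 2 of them. The fibroblast sum and the pericyte and smooth muscle sum given above were lower in the same crushed Schwann cell libraries, and their part in these results and in those of the laminin chains was not tested.

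Receptors for fibronectin, vitronectin and latent TGF-beta, most of which read the RGD sequence, split in Schwann cells. Itgb8, which with Itgav binds latent TGF-beta, stood at 248 and 205 FPKM uncrushed, 753 and 624 on day 3, 838 and 764 on day 5, and 698 and 856 on day 7. No crushed library overlapped with the uncrushed ones, and the log2 fold changes were 1.74 ± 0.15 SE, 1.88 ± 0.15 and 1.82 ± 0.15 (edgeR adjusted p = 1.01e-05, 7.11e-06 and 1.24e-05). The change from day 3 to day 7 was 0.09 and did not pass the test. Whole nerve rose from 38.5 and 44.8 FPKM to 214 and 216 on day 3, 272 and 345 on day 5, and 228 and 277 on day 7, by 1.96 ± 0.14 SE on day 3 (edgeR adjusted p = 1.53e-06). The injury effects of the 2 tissues differed by -0.32 on day 3 and -0.48 on day 7, neither past the test.

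Itgav, the only alpha partner of Itgb8, moved less. It stood at 58.0 and 59.6 FPKM in uncrushed Schwann cells, 88.9 and 88.3 on day 3, 78.8 and 69.4 on day 5, and 76.9 and 81.8 on day 7, with a log2 fold change of 0.65 ± 0.10 SE on day 3 (edgeR adjusted p = 6.14e-04). The day 5 value of 0.31 lost its call without uncrushed replicate 1 (0.26) or day 5 replicate 1 (0.20), and the day 7 value of 0.39 without day 7 replicate 2 (0.35, edgeR adjusted p = 0.0622). The ratio of Itgb8 to Itgav was 3.86 ± 0.59 (SD, n = 2) uncrushed and 10.8 ± 0.3 on day 5 in Schwann cells, and 1.36 ± 0.03 and 5.09 ± 0.04 in whole nerve.

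Itga5, the alpha chain of the classical fibronectin receptor, rose from 0.83 and 0.64 FPKM to 3.10 and 2.71 on day 3 (log2 fold change 2.03 ± 0.19 SE, edgeR adjusted p = 1.5e-05). Itga8, an RGD receptor that binds nephronectin and tenascin, went from 0.36 and 0.36 FPKM uncrushed to 1.33 and 1.37 on day 3, 3.55 and 4.16 on day 5, and 5.28 and 4.14 on day 7, where the libraries of days 5 and 7 overlapped. The step from day 3 to day 7 was 1.71 ± 0.16 SE (edgeR adjusted p = 1.17e-04). Itga9, which binds tenascin and osteopontin, rose by 1.39 ± 0.17 SE on day 3 (edgeR adjusted p = 9.45e-05), from 3.09 and 2.03 FPKM to 6.46 and 6.44. These 3 genes had in common a low level and a call higher than uncrushed on each of the 3 days.

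Itga4, a receptor for fibronectin and VCAM-1, fell in Schwann cells and rose in whole nerve. It stood at 34.8 and 32.4 FPKM in uncrushed Schwann cells, 13.8 and 12.5 on day 3, 18.3 and 16.8 on day 5, and 18.6 and 21.1 on day 7. In whole nerve it stood at 4.43 and 5.20 FPKM uncrushed, 8.25 and 9.80 on day 3, 10.6 and 10.9 on day 5, and 10.2 and 11.3 on day 7. The day 7 log2 fold changes were -0.81 ± 0.11 SE and 0.74 ± 0.12 (edgeR adjusted p = 2.40e-04 and 8.99e-04), and their difference was -1.66 ± 0.16 (edgeR adjusted p = 4.05e-06). The macrophage marker sum in whole nerve was 140 to 160 FPKM uncrushed and 360 to 636 after crush, and its part in the whole nerve rise was not tested. Itgb3, the beta chain of the vitronectin receptor, fell by 1.86 in Schwann cells on day 3, from 9.26 and 7.19 FPKM to 2.03 and 2.30. Itgb5, another beta partner of Itgav, stood at 13.1 and 9.54 FPKM uncrushed, 6.19 and 6.71 on day 3, 7.45 and 7.36 on day 5, and 5.10 and 5.65 on day 7, and its log2 fold change on day 7 was -1.11 ± 0.15 SE (edgeR adjusted p = 2.64e-04). Itgb6, the epithelial partner of Itgav, was listed at 0 in all 8 Schwann cell libraries. Of the 9 genes of these receptors, 8 were tested in Schwann cells and 5 were higher and 3 lower on each of the 3 days, where 26.9%, 29% and 25% of all genes were higher and 25.7%, 25.6% and 21.9% lower.

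**Figure D3:**
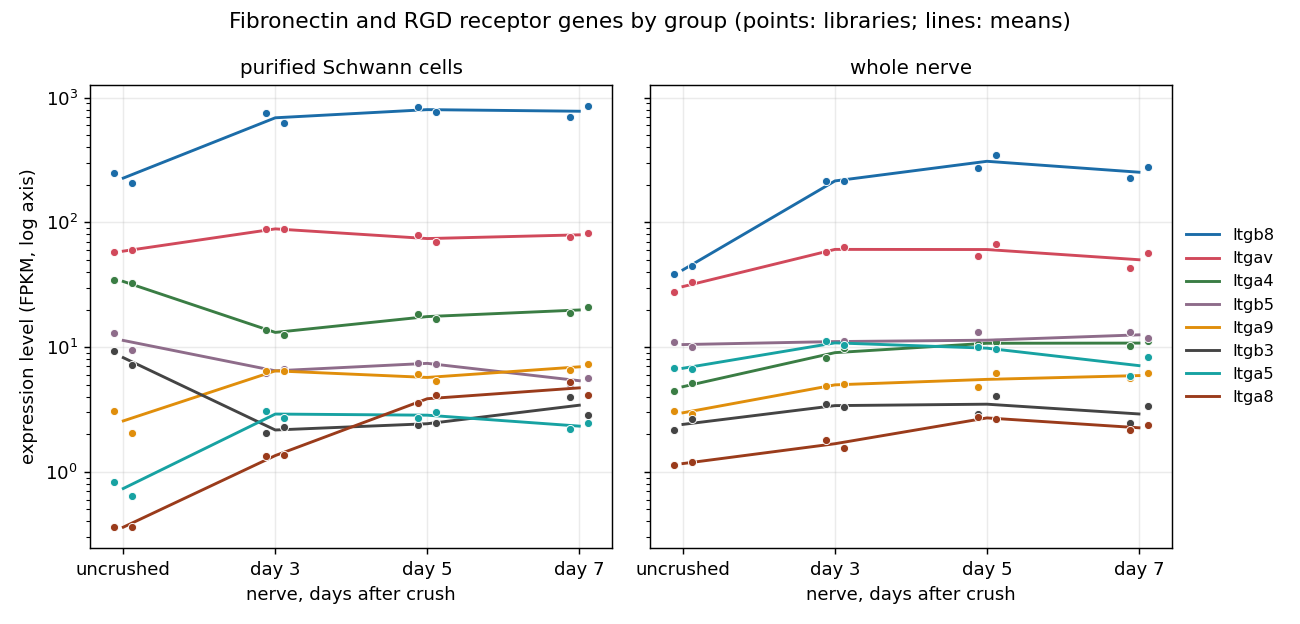
Expression level in FPKM on a log axis for 8 genes of fibronectin and RGD receptors in purified Schwann cells (left) and whole nerve (right), uncrushed and 3, 5 and 7 days after crush. Points are the 2 libraries of each group and lines join their means. In Schwann cells Itgb8 rises from 205 to 248 FPKM to at least 624 in every crushed library, and Itga4, Itgb3 and Itgb5 lie below their uncrushed levels.

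Of the leukocyte integrins, Itgb2, Itgam, Itgal and Itgax rose in whole nerve, and the first 3 were scarce in purified Schwann cells. Itgb2, their common beta chain, stood at 1.33 and 1.18 FPKM in uncrushed whole nerve, 8.27 and 10.6 on day 3, 5.00 and 5.39 on day 5, and 5.92 and 6.06 on day 7. Itgam, the alpha chain of the macrophage receptor Mac-1, went from 2.31 and 1.83 FPKM to 10.4 and 11.7 on day 3, 4.8 and 4.98 on day 5, and 4.95 and 6.14 on day 7. Itgal, the alpha chain of LFA-1, went from 0.69 and 0.84 FPKM to 5.39 and 4.99 on day 3. The day 3 log2 fold changes were 2.49 ± 0.18 SE for Itgb2, 2.00 ± 0.17 for Itgam and 2.37 ± 0.17 for Itgal (edgeR adjusted p = 1.53e-06, 4.92e-06 and 1.87e-06), and the macrophage marker sum rose in the same libraries from 140 to 160 FPKM to 611 to 636. In Schwann cells none of the 3 exceeded 0.52 FPKM in any library.

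Itgax, the alpha chain known as CD11c, rose in Schwann cells too. It lay at the floor in uncrushed Schwann cells (0.05 and 0.04 FPKM), and stood at 2.85 and 2.5 on day 3, 3.39 and 3.85 on day 5, and 0.60 and 0.87 on day 7. This was at least 56.8-fold higher on day 3, at least 73-fold on day 5 and at least 14.5-fold on day 7 (edgeR adjusted p = 5.98e-07, 5.17e-07 and 3.38e-05), and the fall from day 3 to day 7 was -1.98 on the log2 scale. Whole nerve held 0.23 and 0.35 FPKM uncrushed, 1.21 and 0.70 on day 3, 2.59 and 1.43 on day 5, and 0.99 and 1.03 on day 7. Its whole nerve log2 fold changes were 1.40, 2.5 and 1.51 on days 3, 5 and 7 (edgeR adjusted p = 0.017, 6.64e-04 and 0.0183). The day 3 call was lost without uncrushed replicate 1 (1.11) or day 3 replicate 1 (0.97), and the day 7 call without uncrushed replicate 1 (1.22), day 7 replicate 1 (1.53) or day 7 replicate 2 (1.5). On day 3 Itgax was higher in Schwann cells, set against whole nerve, by 1.55 on the log2 scale. The day 5 difference of 0.79 lost its call without day 5 Schwann cell replicate 1 (0.90) or replicate 2 (0.72) or whole nerve replicate 2 (0.47), and the day 7 difference of -0.56 did not pass the test. Over the same libraries Itgb2, its known partner, was at 0.14 and 0.16 FPKM in uncrushed Schwann cells, 0.23 and 0.45 on day 3, and 0.09 and 0.16 on day 5, and Ptprc, the gene of CD45, was at 0.18 and 1.29 on day 3 and 0.31 and 0.26 on day 5. The macrophage marker sum was 3.07 FPKM in day 3 replicate 1 and 14.4 in replicate 2 of the Schwann cells, and its part in the Itgax values was not tested. Itgad, a further CD11 chain, lay at the floor in uncrushed Schwann cells and at 0.52 and 0.20 FPKM on day 3, from 30 and 21 counts. Itgax, Itgad and Itgam are related in sequence, and how reads were divided among them could not be checked here.

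**Figure D4:**
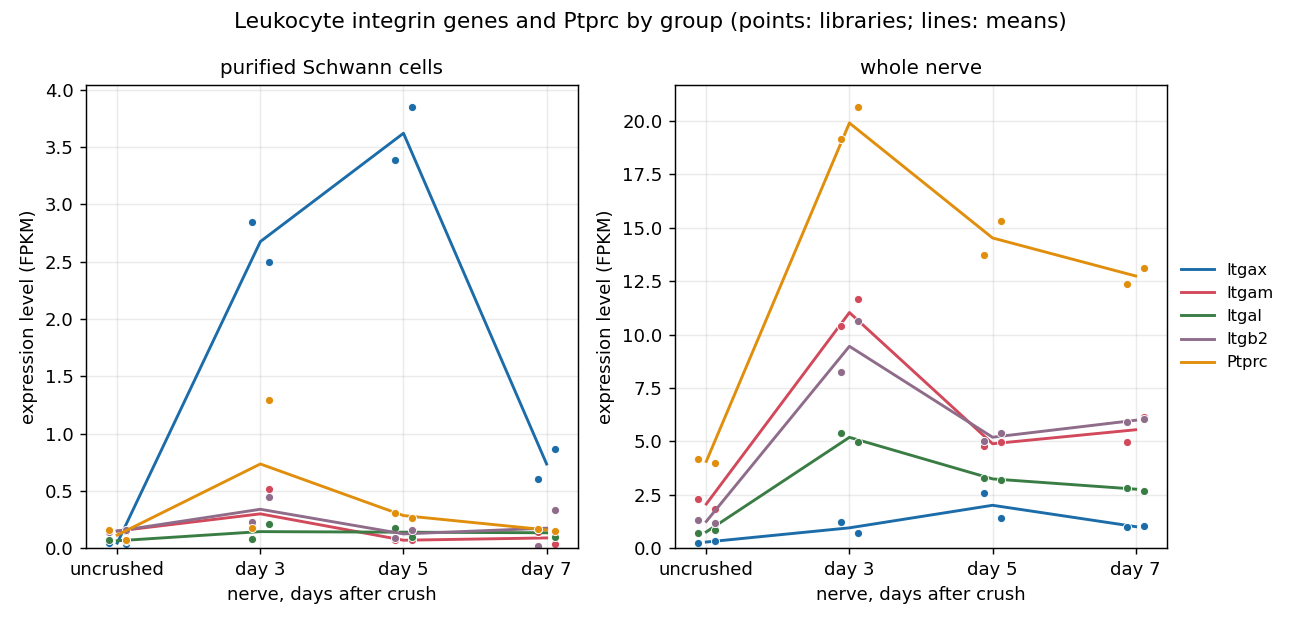
Expression level in FPKM on a linear axis for 4 leukocyte integrin genes and Ptprc in purified Schwann cells (left) and whole nerve (right), uncrushed and 3, 5 and 7 days after crush. The vertical scales of the 2 panels differ, points are the 2 libraries of each group and lines join their means. Itgax reaches 2.5 to 3.85 FPKM on days 3 and 5 in Schwann cells while Itgb2, Itgam and Itgal stay at or below 0.52.

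The remaining 3 leukocyte and platelet chains were low. Itgae was at 0.73 to 2.14 FPKM in Schwann cells and 2.01 to 2.71 in whole nerve, Itgb7 at 0.14 to 0.33 and 0.73 to 1.75, and Itga2b, the platelet chain, at 0.16 or less in every library. Itgae and Itga2b were called on day 3 in Schwann cells, at -0.96 and -1.81, and neither Itgae nor Itgb7 passed the test in whole nerve against uncrushed on any day. The Itgae call was lost without uncrushed replicate 1 (-0.44), day 3 replicate 1 (-0.92) or day 3 replicate 2 (-1.06), and the Itga2b call without any 1 of the 4 libraries (-2.31 to -1.58).

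Purified Schwann cells differed from whole nerve in which laminins and receptors they held before the injury. Of 36 genes tested, 15 were higher and 15 lower in uncrushed Schwann cells, where 64.4% of all genes were called, 29.1% higher and 35.3% lower. The fitted differences lay a median of 0.31 below the log2 FPKM ratios over the 17 members that reached 10 FPKM. Lama2 was higher by 2.07 ± 0.12 SE on the log2 scale, Itgb8 by 2.05 ± 0.16, Itga4 by 2.47 ± 0.12 and Itga7 by 1.67 ± 0.11 (edgeR adjusted p = 3.00e-09, 6.77e-08, 4.85e-10 and 8.26e-09). Lower were Itga5, by 3.50 ± 0.19 on the log2 scale (-3.50, edgeR adjusted p = 1.33e-09), Lamb2 (-0.61), Itga3 (-3.03, or -2.43 and -3.93 without uncrushed Schwann cell replicate 1 or 2), Itga8 (-1.98) and, of the leukocyte chains, Itgal (-3.86), Itgam (-4.20), Itgb2 (-3.35) and Itgb7 (-1.54).

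After crush the laminin excess of Schwann cells narrowed. Lama2 was higher by 0.82 on day 3 and by 0.75 on day 7, Lama4 differed by -0.14 on day 3 and did not pass the test, and Lamc1 was lower on day 3 by 0.38 ± 0.11 SE on the log2 scale (-0.38, edgeR adjusted p = 0.00677). The fitted excess of Dag1, the dystroglycan gene, widened from 0.29 uncrushed to 1.5 ± 0.12 SE on day 3 and 1.35 ± 0.12 on day 7 (edgeR adjusted p = 9.42e-08 and 3.43e-07 on days 3 and 7). The uncrushed call was lost without uncrushed whole nerve replicate 1 (0.16) and without either uncrushed Schwann cell library (0.27 and 0.31). In FPKM, uncrushed Dag1 stood at 328 and 325 in Schwann cells against 197 and 234 in whole nerve, without overlap. Log2 FPKM ratios minus fitted differences had a median of 0.31 uncrushed, -0.05 on day 3 and 0.06 on day 7. The size of the widening thus depends on the scaling. On day 3, 11 of 36 genes were higher and 17 lower in Schwann cells beside 57.3% of all genes called (24.5% higher, 32.8% lower). On day 5 it was 10 and 16 beside 51.7% (23.2% higher, 28.4% lower), and on day 7 it was 9 and 14 beside 51% (22.4% higher, 28.7% lower). The injury effect itself differed between Schwann cells and whole nerve for 19 of 36 genes on day 3 and for 18 on day 7, where 26% of all genes passed that test on day 3 and 26% on day 7. Upper quartile scaling moved the median of all genes in the comparison of Schwann cells with whole nerve by 0.135 on day 5 and 0.101 on day 7, and no called member changed sign. Under it 29.3% of all genes were higher and 24.4% lower on day 5, beside 12 and 15 members. On day 7 it was 27.0% and 25.5%, beside 10 and 14 members. The order of the shares over all genes thus depends on the scaling.

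**Figure D5:**
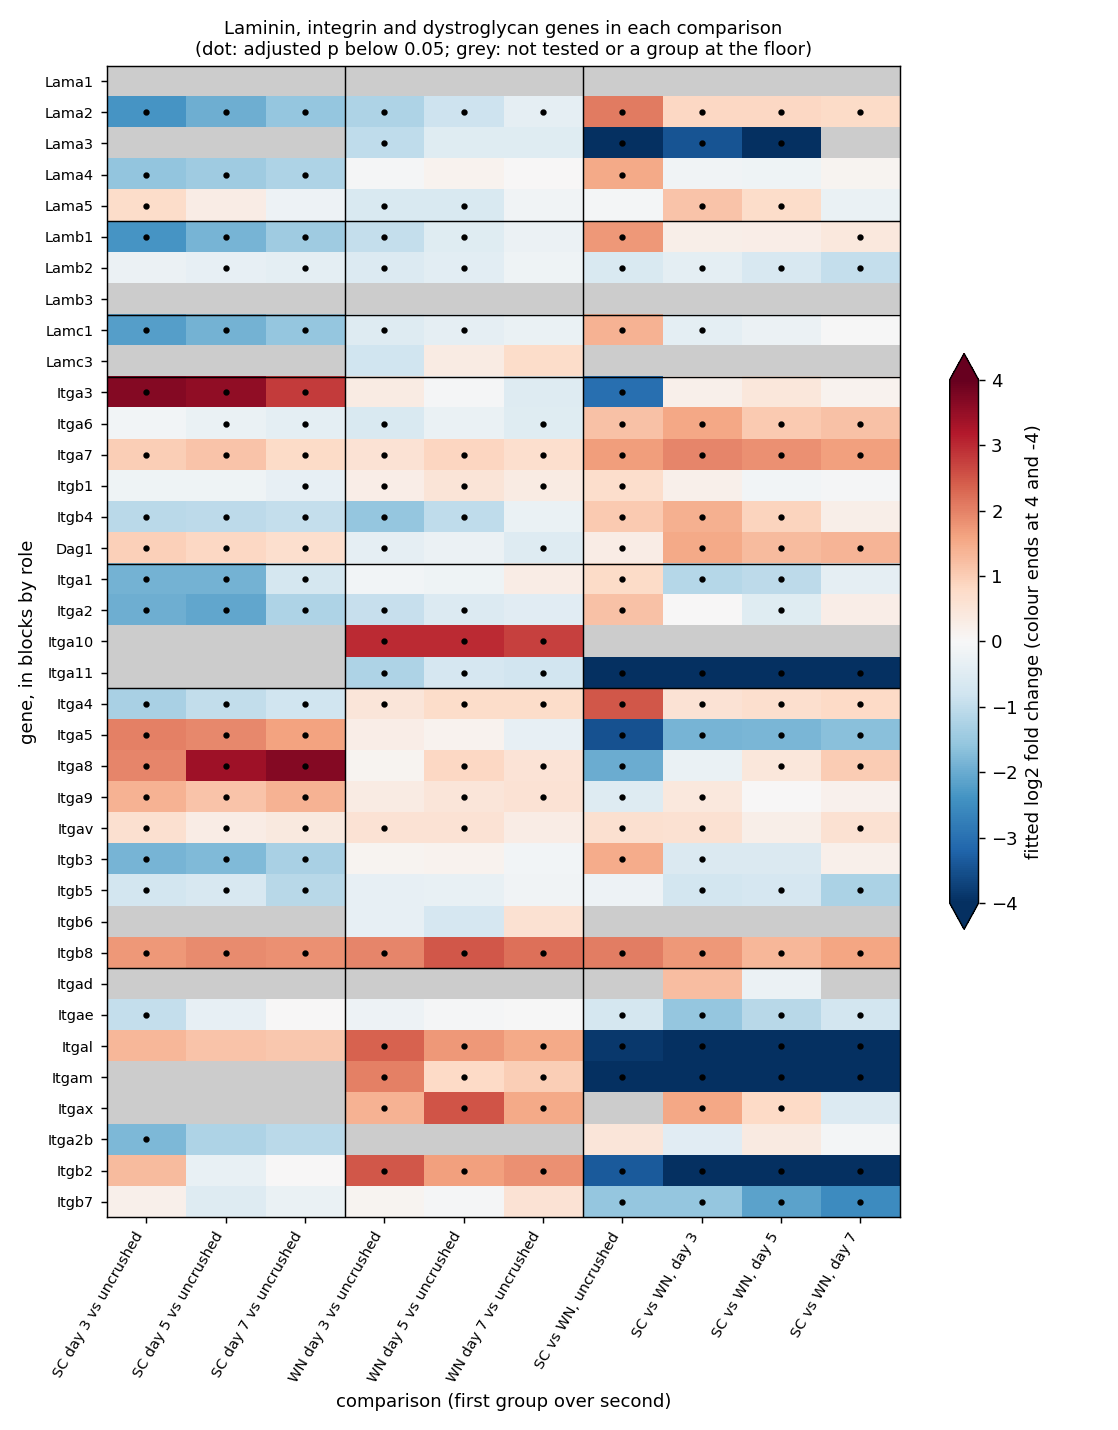
Fitted log2 fold changes of laminin, integrin and dystroglycan genes (rows, in blocks by role) in 10 comparisons (columns). Red is higher in the first group named, blue lower, dots mark an adjusted p below 0.05 in edgeR, and grey marks genes not tested or with a group at the floor. The laminin blocks are blue after crush in Schwann cells for Lama2, Lama4, Lamb1 and Lamc1, and the row of Itgb8 is red in every column.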

How the data were processed

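RNA of 16 libraries, 2 for each of 8 groups taken from the labels, was analysed. The authors aligned reads to Rnor_6.0 with STAR and deposited RSEM expected counts, not normalized, and RSEM FPKM for 31038 genes. Molecular identifiers and counting by strand are not given in the sources used here. Expected counts were rounded and tested with edgeR 4.0.16 in R 4.3.3 (TMM, filterByExpr by group, quasi-likelihood test, Benjamini-Hochberg at 0.05), in a fit of 8 libraries per tissue and in a fit of all 16 between tissues. The test was run on simulated counts with 1 fixed spread and few changed genes, as many raised as lowered. That check does not cover changes as broad as those in these data. The genes and lists were chosen with earlier results of these data known. The genes named are the members, those reaching 10 FPKM with the values of single libraries, and of each further list the most raised and most lowered called gene of day 3 Schwann cells, plus Prx, Drp2, Dmd, Utrn, Adgrg6, Bcam and Cd151. Some results under this rule are not reported here. Col4a1 was named after its values were seen. A group is at the floor with at most 3 counts in each library, and bounds were computed from 3 counts per library; they cover counting error only. Alternatives were DESeq2 1.42.0, other scalings, filters and fits, a replicate block, leaving out each library, and, added after seeing the data, FPKM ratios. Correlations of same-numbered libraries, within a tissue and between tissues of one day, stayed under 0.1, so the numbers were not taken as pairs. The authors' co-expression modules were not used.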

Additional observations from a re-analysis of the deposited data

Results flagged for a closer look

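The injury effect was subtracted between tissues, Schwann cells minus whole nerve, in the edgeR fit of all 16 libraries, and the test of that difference was passed by 19 of 36 genes on day 3 and by 18 on day 7, where 26% of all genes passed on either day. Genes with a group at the floor are left out of the values below, which are differences of log2 fold changes. Log2 FPKM ratios between tissues were set against the fitted ones over the 17 members that reached 10 FPKM. Ratio minus fit had a median of 0.31 uncrushed, -0.05 on day 3 and 0.06 on day 7. In FPKM the injury effect differences of these members thus lay below those given here. In these 16 libraries dissociation and cell content cannot be told apart from the tissue.

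For the main laminin chains the injury effect was lower in Schwann cells on both days, while in whole nerve Lama4 passed no test on either day, nor Lamb1 and Lamc1 on day 7. The differences on days 3 and 7 were -1.25 and -1.32 for Lama2, -1.49 and -1.32 for Lamb1, -1.77 and -1.40 for Lamc1, and -1.64 and -1.38 for Lama4. Lama5 differed by 1.23 on day 3.

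Among laminin receptors the differences on days 3 and 7 were 1.21 and 1.06 for Dag1, 3.23 and 3.18 for Itga3, and -0.52 and -0.77 for Itgb1. Itgb4 differed by -0.81 on day 7. Itga3 was at 2.63 and 2.58 without uncrushed Schwann cell replicate 1 and at 4.14 and 4.09 without replicate 2. The day 3 value of Itgb1 lost its call without uncrushed Schwann cell replicate 1 (-0.35), uncrushed whole nerve replicate 2 (-0.49), day 3 Schwann cell replicate 2 (-0.50) or day 3 whole nerve replicate 2 (-0.48).

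Among collagen receptors they were -1.89 and -1.13 for Itga1 and -1.14 and -0.91 for Itga2, and 2.21 for Itga11 on day 3. The day 7 value of Itga2 lost its call without day 7 whole nerve replicate 2 (-0.63). Itga11 had at most 0.20 FPKM in Schwann cells, and its call was lost without any of 5 libraries, at 1.33 to 2.30, while without uncrushed Schwann cell replicate 1 it was 3.23. A replicate block also ended the Itga11 call (2.12).

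Among fibronectin and RGD receptors they were -1.89 and -1.66 for Itga4, 1.65 and 1.83 for Itga5, 1.72 and 2.98 for Itga8, 0.95 and 0.71 for Itga9, and -2.07 and -1.29 for Itgb3, and Itgb5 differed by -1.08 on day 7. The day 7 value of Itga9 lost its call without any of 5 libraries, at 0.46 to 0.74, and that of Itgb3 without uncrushed whole nerve replicate 1 (-1.14) or day 7 whole nerve replicate 2 (-1.02).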

How the results depend on the processing

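Of 267 calls of members with no group at the floor, 208 held under every alternative run and 59 were lost under at least 1, and none changed sign in a fit. Among those 208 are the falls of Lama2, Lamb1, Lamc1, Lama4 and Itgb4 and the rises of Dag1, Itga7 and Itgb8 in Schwann cells on all 3 days. On FPKM ratios 3 whole nerve calls turned, Dag1 on day 3 (0.06), Lamc1 on day 5 (0.03) and Lama2 on day 7 (0.05), since the TMM factors of uncrushed whole nerve were 0.811 and 0.808 and those of crushed whole nerve 1.06 to 1.09. Total counts of called members kept within 1.5 times except between day 3 and day 7, while against uncrushed the whole nerve counts by direction moved further: on day 3 from 10 to 6 higher without uncrushed replicate 1, on day 5 from 8 lower to 5 without uncrushed replicate 2 and 4 in one fit on all 16 libraries, and on day 7 from 4 lower to 1 without uncrushed replicate 2 or day 7 replicate 1 and 2 in one fit on all 16 libraries. Between day 3 and day 7, leaving out 1 library gave 7 to 11 in Schwann cells (5 to 7 higher, 1 to 4 lower) and 6 to 8 in whole nerve (3 to 5 higher, 2 to 5 lower), and one fit on all 16 libraries gave 7 in whole nerve, against 12 and 11; over all genes the ranges were 1555 to 2215 and 1658 to 2559. Uncalled values changed sign for Itgb1 in Schwann cells on day 3 (-0.32 to 0.00 without 1 library), for Itgb8 from day 3 to day 7 (-0.07 to 0.22) and for Lama4 in whole nerve on day 3 (0.02 in one fit on all 16 libraries, -0.12 to 0.02 without 1 library) and day 7 (-0.03 to 0.10). The replicate numbers were not taken as pairs, since correlations of same-numbered libraries ran from -0.0576 to 0.0838. A replicate block gave 23 called members on day 3 in Schwann cells against 24. Among calls between tissues with no group at the floor, it ended those of Itga9 and Itgae uncrushed and Itgb3 on day 3. It also ended those of Itga2, Itga8 and Itgax on day 5, Itgae on day 7 and the injury effect difference of Itga11 on day 3 (2.12, edgeR adjusted p = 0.0516). With 2 libraries a group, an exact permutation test cannot go below p = 0.333, and low genes are read from few counts.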
